A study of Rattus norvegicus with 9 samples.

Results

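Expression of 7 genes of microglia, complement and antigen presentation was described in RNA-sequencing libraries of dorsal hippocampus, 1 from each of 9 male Sprague-Dawley rats aged 8 weeks. The genes were Aif1, Itgam, C1qa, C1qb, C3, Cd74 and B2m, listed by Ensembl identifier among the 32545 gene identifiers of each count file. All 7 were present in every file and had a mean of at least 1 CPM, the unit of levels here (reads of a gene relative to the size of its library). None lay near that limit, as the lowest mean was 10.5 CPM, for Cd74. The rats had either control rearing (CTL, n = 4) or early-life adversity (ELA, stressful conditions in infancy, n = 5), and none had been used for behavioural tests. The labels do not say what the adversity consisted of or which rats shared a litter. They name no transgene, drug or surgery.

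Microglia are the resident macrophages of the brain. C1q is the recognition molecule that starts the classical complement cascade, and its chains are made in the brain mainly by microglia. C3 is the central complement protein, whose cleaved fragment marks targets for phagocytes that carry complement receptor 3. In the developing brain this pathway is known for tagging synapses for removal. B2m is the light chain of major histocompatibility complex (MHC) class I, and Cd74 is the invariant chain that guides MHC class II molecules. These are levels in bulk tissue, so fewer cells of a type and less RNA per cell cannot be told apart. The 7 identifiers were the only ones paired with symbols in the sources used here, so markers of neurons, other glia, vessels and blood were not examined and the labelled tissue was not checked against them.

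C1qa, C1qb and B2m are shown by the sequence before their starts. They were chosen because C1qa with C1qb and C1qa with B2m were the pairs that followed each other most closely across the libraries. The sequences are from RefSeq (GRCr8, a later assembly than the rn6 build of the count files). They are written 5′ to 3′ on the gene's strand, at chr5:154419934-154420183 (minus strand) for C1qa, chr5:154407828-154408077 (minus strand) for C1qb and chr3:129549080-129549235 (plus strand) for B2m. The first 2 cover the 250 bases before the start, and that of B2m stops after 156 bases, before its earliest annotated transcript. In the same annotation C1qc lies between C1qb and C1qa. Capitals mark GGAAGT on either strand, a core bound by ETS factors such as the myeloid factor PU.1, or GAAA followed by NN and GAAA, the core of the interferon-stimulated response element.
C1qa: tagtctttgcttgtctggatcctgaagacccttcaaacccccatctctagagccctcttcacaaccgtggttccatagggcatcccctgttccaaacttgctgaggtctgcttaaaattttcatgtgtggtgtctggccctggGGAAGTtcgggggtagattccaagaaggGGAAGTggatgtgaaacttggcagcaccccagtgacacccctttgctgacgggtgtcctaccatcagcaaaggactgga
C1qb: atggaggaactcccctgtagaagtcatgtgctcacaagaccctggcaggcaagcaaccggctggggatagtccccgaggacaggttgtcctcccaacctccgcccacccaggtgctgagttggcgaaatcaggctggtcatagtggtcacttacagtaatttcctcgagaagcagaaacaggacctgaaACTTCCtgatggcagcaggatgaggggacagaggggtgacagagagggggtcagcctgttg
B2m: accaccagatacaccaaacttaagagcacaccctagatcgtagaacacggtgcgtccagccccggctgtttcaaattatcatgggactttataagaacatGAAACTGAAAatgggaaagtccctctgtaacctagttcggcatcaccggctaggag
The C1qa sequence held GGAAGT at 2 places and the C1qb sequence held it at 1, there on the opposite strand (ACTTCC). Over the 250 bases before the start, GGAAGT on either strand was found in 19.2% of the 33469 RefSeq promoter windows. The B2m sequence held GAAA, NN and GAAA in a row once, a motif found in 3.41% of those windows. Both motifs were chosen after the sequences were seen, so these shares are no test of enrichment. Neither motif was found in the 250 bases before Itgam, C3 or Cd74, and Aif1 had no entry.

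The first question was whether any of the 7 genes differed between adult rats of the ELA and CTL groups. None passed the test: 0 of 7 were called at an adjusted p under 0.05, and 0 of 7 had an unadjusted p under 0.05 (edgeR quasi-likelihood test). Over all 14463 genes tested, 0.0415% were called and 9.4% had an unadjusted p under 0.05. By the DESeq2 Wald test 0 of 7 were called too, with 1.11% of genes called overall. The groups overlapped in all 7 genes, whereas 3.04% of all genes showed no overlap. The median log2 fold change of the 7 genes was 0.0033, beside 0.0035 over all genes tested, with 4 genes above 0 and 3 below. The labels number the rats but do not pair them. Reads assigned to genes ranged from 11049282 to 17089188 per library, which gave 107 to 5476 reads for each of the 7 genes.

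**Figure D1:**
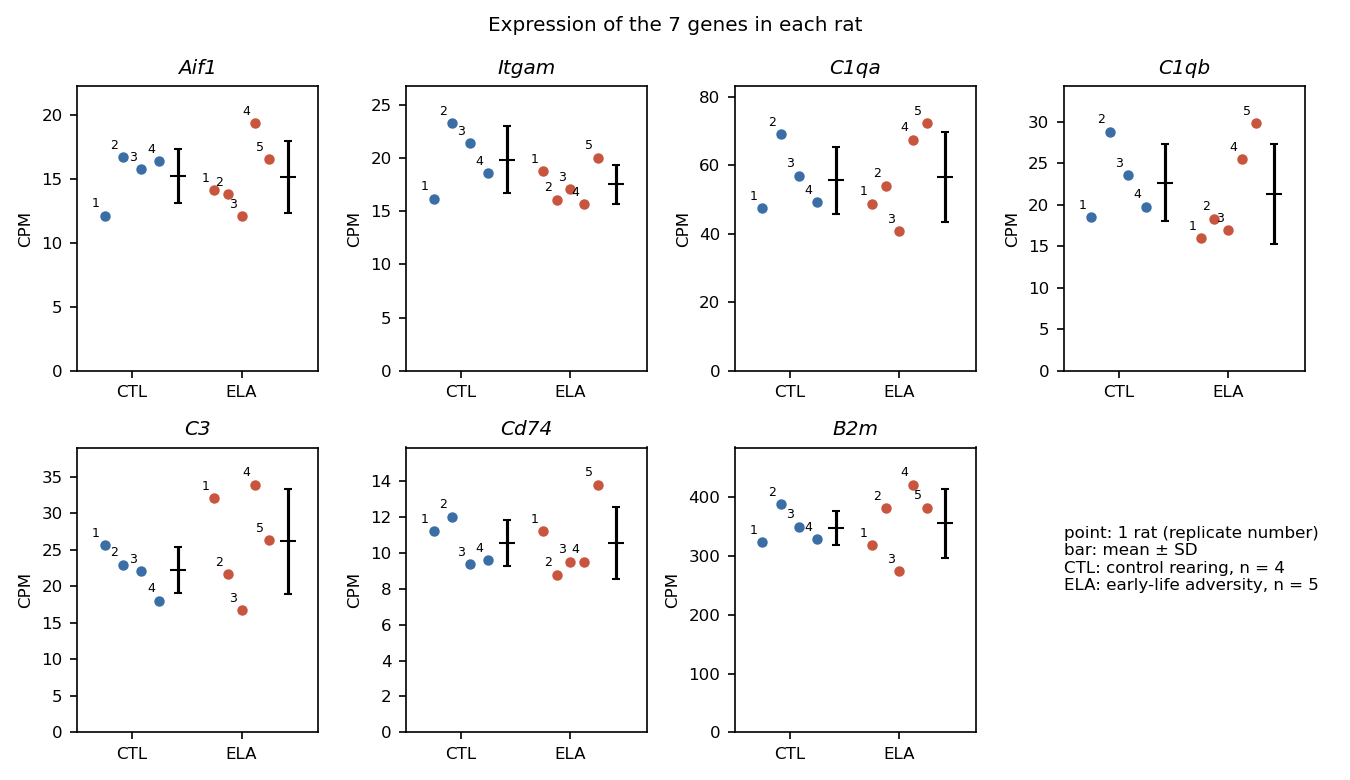
Level of each gene in CPM (vertical axes, from 0) for the 4 CTL and 5 ELA rats, with replicate numbers beside the points and black bars for the mean ± SD. The groups overlap in every panel, and ELA replicates 3 and 5 lie far apart in C1qa, at 40.7 and 72.3 CPM.

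Aif1 encodes Iba1, the calcium-binding protein used to stain microglia. The gene (ENSRNOG00000000853) was at 12.1, 16.7, 15.8 and 16.4 CPM in CTL replicates 1 to 4. In ELA replicates 1 to 5 it was at 14.1, 13.8, 12.1, 19.4 and 16.5 CPM. The lowest and the highest values both belonged to ELA rats, and the CTL rats lay between them. The group means were 15.3 ± 2.12 and 15.2 ± 2.82 CPM (SD, n = 4 and 5), a log2 fold change (± standard error) of -0.02 ± 0.14 (edgeR, adjusted p = 0.988). The 95% interval of the difference, in percent of the CTL level, ran from -19.5 to 21.3%.

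Itgam encodes CD11b, the alpha chain of complement receptor 3, through which microglia bind C3 fragments. Its gene (ENSRNOG00000019728) was at 16.2, 23.3, 21.4 and 18.5 CPM in CTL replicates 1 to 4. The ELA rats had 18.8, 16.1, 17.1, 15.6 and 20.03 CPM in replicate order. The ELA values were all below those of CTL replicates 2 and 3, but CTL replicate 1 lay among the lowest. Means were 19.9 ± 3.12 CPM in CTL and 17.5 ± 1.84 CPM in ELA rats (SD, n = 4 and 5). The log2 fold change of -0.18 (standard error 0.11) had the smallest p-value of the 7 genes but did not pass (edgeR, unadjusted p = 0.129, adjusted p = 0.673). Its 95% interval was -25.2 to 4.27%.

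The size of the Itgam difference moved with single CTL libraries, in both directions. Without CTL replicate 1 the log2 fold change was -0.27 (edgeR, unadjusted p = 0.0241, adjusted p = 0.277), and it was the 1 gene of 7 with an unadjusted p under 0.05. In that fit 13.2% of all genes had an unadjusted p under 0.05 and 0.893% were called, against 0 of the 7. Without CTL replicate 2, the rat with the highest Itgam level, the log2 fold change was -0.10 (edgeR, adjusted p = 0.925). Itgam was lower in the ELA group in the main fit and in each of its 19 alternative fits, with log2 fold changes from -0.27 to -0.10, and it was called in none.

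C1qa and C1qb encode the A and B chains of C1q. C1qa (ENSRNOG00000012807) was at 47.5, 69.0, 57.0 and 49.2 CPM in CTL replicates 1 to 4 and at 48.8, 54.0, 40.7, 67.5 and 72.3 CPM in ELA replicates 1 to 5. C1qb (ENSRNOG00000012804) was at 18.5, 28.8, 23.6 and 19.8 CPM in the CTL rats and at 16.0, 18.3, 17.0, 25.5 and 29.8 CPM in the ELA rats. In both genes CTL replicate 2 and ELA replicates 4 and 5 were the 3 highest libraries. The ELA rats thus held 2 high libraries and 3 lower ones. In C1qa, CTL rats lay in both ranges. In C1qb the 3 lower ELA rats, at 16.0 to 18.3 CPM, lay below every CTL rat, and CTL replicate 2 lay in the high range.

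Group means of the C1q genes differed by less than the spread between rats. C1qa had means of 55.7 ± 9.79 CPM in CTL and 56.7 ± 13.1 CPM in ELA rats (SD, n = 4 and 5), with a log2 fold change (± standard error) of 0.02 ± 0.17 (edgeR, adjusted p = 0.989). C1qb had means of 22.7 ± 4.60 and 21.3 ± 6.05 CPM (SD, n = 4 and 5), with a log2 fold change (± standard error) of -0.10 ± 0.20 (edgeR, adjusted p = 0.935). The intervals were wide, -22.1 to 32.1% for C1qa and -31.4 to 26.8% for C1qb. These were 2 of the 3 largest standard errors among the 7 genes.

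C3 is the protein on which the complement pathways converge. Its gene (ENSRNOG00000046834) was at 25.7, 23.0, 22.1 and 18.1 CPM in CTL replicates 1 to 4. ELA replicates 1 to 5 had 32.1, 21.6, 16.8, 33.9 and 26.3 CPM. ELA replicates 1, 4 and 5 lay above every CTL rat, and ELA replicate 3 lay below every CTL rat. Means were 22.2 ± 3.15 and 26.2 ± 7.16 CPM (SD, n = 4 and 5). The log2 fold change of 0.24 (standard error 0.19) was the largest in size among the 7 and did not pass (edgeR, unadjusted p = 0.248, adjusted p = 0.786, 95% interval -12.4 to 58.3%). Without ELA replicate 3 it was 0.36 (edgeR, unadjusted p = 0.0293, adjusted p = 0.586), in a fit where 7.56% of all genes had an unadjusted p under 0.05. Without ELA replicate 4 it was 0.13 (edgeR, adjusted p = 0.814).

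The antigen presentation genes had group means that differed little. B2m (ENSRNOG00000017123), the most highly counted of the 7, was at 323, 387, 349 and 328 CPM in CTL replicates 1 to 4 and at 318, 381, 273, 421 and 381 CPM in ELA replicates 1 to 5. The CTL rats lay inside the ELA range, whose ends were ELA replicates 3 and 4. The means were 347 ± 29.0 and 355 ± 58.5 CPM (SD, n = 4 and 5), with a log2 fold change (± standard error) of 0.03 ± 0.11 (edgeR, adjusted p = 0.968, 95% interval -13.7 to 21.2%). Cd74 (ENSRNOG00000018735) ranged from 9.37 to 12.02 CPM in CTL rats, with a median of 10.4 CPM, and from 8.78 to 13.8 CPM in ELA rats, with a median of 9.51 CPM. Its means were 10.5 ± 1.28 and 10.6 ± 2.02 CPM (SD, n = 4 and 5), and the log2 fold change was 0.0033 ± 0.14 (standard error) (edgeR, adjusted p = 0.997, 95% interval -18.4 to 23.1%).

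**Figure D2:**
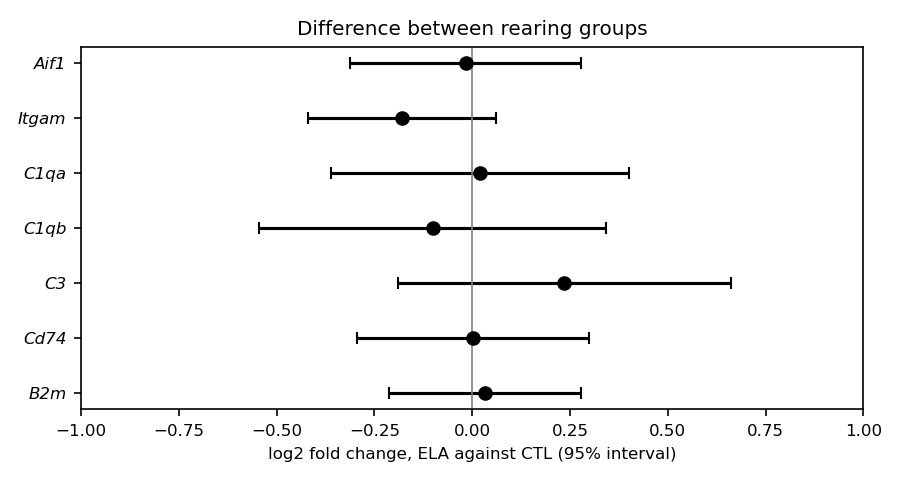
Log2 fold change of ELA against CTL rats (horizontal axis) for each gene, with points for the edgeR estimate and bars for the 95% interval. All 7 intervals include 0, and they run from -0.54 for the lower bound of C1qb to 0.66 for the upper bound of C3.

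The spread between rats was larger than the counting error of the reads in each of the 7 genes. For B2m, counting error at the mean read number was 1.44%, while the coefficient of variation between rats was 8.37% in CTL and 16.5% in ELA. C1qb had a counting error of 5.80% and varied between rats by 20.3% in CTL and 28.4% in ELA. For Cd74, the gene with the fewest reads, these values were 8.30, 12.1 and 19.1%. Counting errors cover the sampling of reads only.

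All 7 genes varied more between rats than the median gene, and C1qa, C1qb and C3 varied most. The biological coefficient of variation estimated by edgeR, which leaves out counting error, was 17.7% for C1qa, 20.3% for C1qb and 19.4% for C3. Its median over all genes tested was 8.93%. The other 4 genes lay between 10.8% for Itgam and 13.2% for Aif1.

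The order of the libraries was partly shared between the genes and crossed the rearing groups. ELA replicate 5 was among the 3 highest libraries in 7 of 7 genes, CTL replicate 2 in 6 and ELA replicate 4 in 5. ELA replicate 3 was among the 3 lowest in 6 of 7 genes and the lowest of all in 4 (Aif1, C1qa, C3 and B2m). The extremes of this order, ELA replicates 5 and 3, thus had the same rearing. ELA replicate 4 broke the pattern: it had the highest Aif1, C3 and B2m and the lowest Itgam of the 9 libraries.

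**Figure D3:**
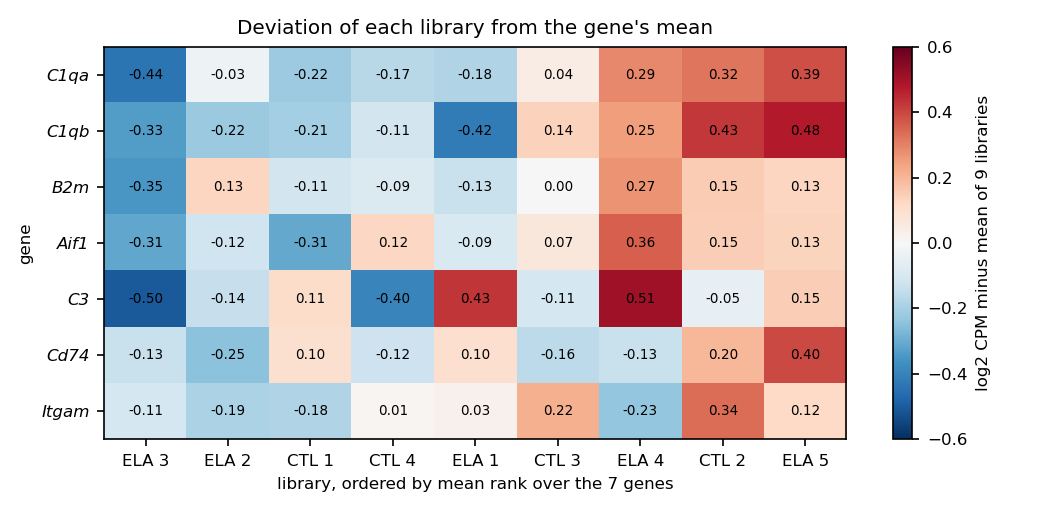
Log2 CPM of each library minus the gene's mean over the 9 libraries (colour and printed value), with genes in rows and libraries in columns ordered by their mean rank over the 7 genes. For C1qa, ELA replicate 3 is at -0.44 and ELA replicate 5 at 0.39, and ELA replicate 4 is at 0.36 in Aif1 but -0.23 in Itgam.

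Among the 21 pairs of genes, C1qa with C1qb and C1qa with B2m followed each other most closely over the 9 rats. For C1qa and C1qb, Pearson's r of log2 CPM was 0.921 (exact permutation p = 0.000703, adjusted over the 21 pairs 0.0108) and Spearman's rho was 0.883 (exact permutation p = 0.00308, adjusted 0.0319). For C1qa and B2m, r was 0.904 (exact permutation p = 0.00103, adjusted 0.0108) and rho was 0.9 (exact permutation p = 0.00203, adjusted 0.0319). Both relations held without the 2 rats farthest from the C1qa median, at r = 0.906 and 0.89. With each group centred on its own mean r was 0.94 for C1qa with C1qb and 0.905 for C1qa with B2m, so neither rested on a difference between the groups.

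Aif1 joined these 3 genes by rank. By rho, 6 of 21 pairs passed after adjustment, and they were the 6 pairs among Aif1, C1qa, C1qb and B2m. By r, 2 of 21 passed. Aif1 had r = 0.807 with C1qa (exact permutation p = 0.0103, adjusted 0.0718), with rho = 0.85 (exact permutation p = 0.00607, adjusted 0.0319). Without the 2 rats farthest from the Aif1 median this r was 0.642. Of the other genes tested, 5.29% were at least as close to Aif1 by r as C1qa was. The share was 7.08% for B2m with Aif1 and 8.82% for C1qb with Aif1. For B2m, 6.49% of genes were at least as close to C1qb. The share of all gene pairs that would pass by rho was not computed.

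Over all 9 rats the receptor gene Itgam did not follow Aif1 detectably, although both are used as microglial markers. Their r was 0.305 (exact permutation p = 0.422, adjusted 0.554) and rho was 0.25 (exact permutation p = 0.521, adjusted 0.607). With 1 rat left out r ran from 0.157 to 0.796, so a single library moved it widely. The value of 0.796 was that without ELA replicate 4. In reads, Itgam stood at 0.807 per Aif1 read in ELA replicate 4 and at 1.13 to 1.41 in the other 8 libraries. This ratio averaged 1.30 ± 0.118 in CTL and 1.18 ± 0.233 in ELA rats (SD, n = 4 and 5, exact permutation two-sided p = 0.476).

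C3 and its receptor gene Itgam gave r = -0.14 (exact permutation p = 0.716, adjusted 0.786) and rho = -0.0667 (exact permutation p = 0.88, adjusted 0.924). C3 with C1qb gave r = 0.223 (exact permutation p = 0.554, adjusted 0.684) and rho = 0.3 (exact permutation p = 0.437, adjusted 0.539). In ELA replicate 1, C3 was the second highest of the 9 libraries while C1qb was the lowest. Cd74 and B2m, of the 2 MHC classes, gave r = 0.147 (exact permutation p = 0.701, adjusted 0.786) and rho = 0.15 (exact permutation p = 0.708, adjusted 0.783). With 9 rats, relations of this size are not told apart from 0 or from moderate ones.

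**Figure D4:**
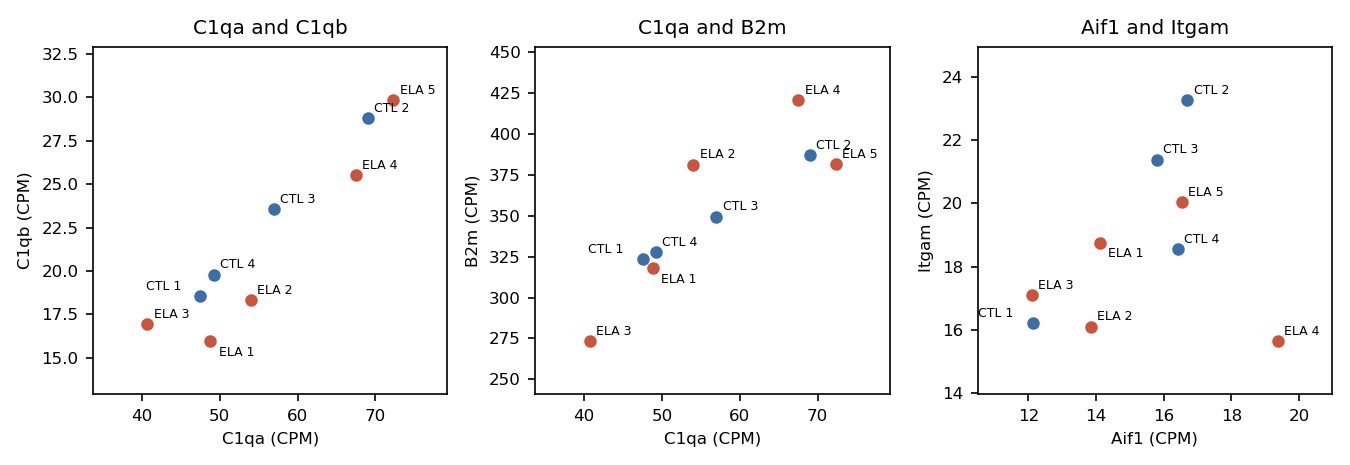
Levels in CPM of C1qa against C1qb, C1qa against B2m and Aif1 against Itgam, with 1 point per rat (blue CTL, red ELA; axes do not start at 0). C1qa follows C1qb (r = 0.921 on log2 CPM) and B2m (r = 0.904), while ELA replicate 4 lies apart in the panel of Aif1 and Itgam.

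The balance of the 2 C1q chains was also compared. C1qa had 2.47 ± 0.0745 reads per C1qb read in CTL and 2.69 ± 0.298 per C1qb read in the ELA group (SD, n = 4 and 5). This difference missed the threshold (two-sided exact permutation p = 0.222). The CTL rats lay between 2.40 and 2.56. ELA replicates 1 and 2 were higher, at 3.05 and 2.95, and the other 3 ELA rats were at 2.40 to 2.65. These ratios are of reads and are not corrected for transcript length.

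Close relations over 9 libraries were not limited to these genes. Of the 14462 other genes tested, C1qb ranked 62 by r with C1qa, and B2m ranked 106. The gene closest to C1qa was ENSRNOG00000012749 (r = 0.986), which has no symbol in the sources used here. C1qa ranked 23 among the genes closest to B2m. Aif1 ranked 572 by r with C1qa and Itgam ranked 3848.

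Before adjustment, some measures of the libraries were related to the same genes. For C1qb and the share of reads taken by the 10 most abundant genes, r was 0.834 and rho 0.867 (p = 0.00629 and 0.00451 by exact permutation). For C1qb and the number of reads assigned to genes, r was -0.715 and rho -0.833 (p = 0.0249 and 0.00827 by exact permutation). Leaving out the 2 libraries with the most extreme measure gave r = 0.933 and -0.653. For C1qa and the share of reads aligned to several places, r was 0.767 and rho 0.85 (p = 0.0129 and 0.00607 by exact permutation), and r was 0.889 when the 2 most extreme libraries were left out. That share was 18.7% in CTL replicate 2, 19.9% in ELA replicate 4 and 21.1% in ELA replicate 5, and 14.3 to 18.4% in the other 6 libraries. The other measures were the share of reads outside annotated genes and the first principal component. That component is the main axis of variation between libraries, here over the most variable genes apart from the 7. It held 33.9% of their variance, with its sign set so that CTL rats averaged higher. Its scores ran from -5.31 to 12.8 in CTL and from -12.3 to 3.64 in ELA rats. For Aif1 and that component r was 0.732 and rho 0.717 (p = 0.0283 and 0.0369 by exact permutation). With each group centred on its own mean this r was 0.941. For C3 and Cd74 with the component, r was 0.0079 and 0.051. Of the 35 relations between the 7 genes and 5 measures, 0 passed when adjusted together by exact permutation (lowest adjusted p 0.15 for r, 0.0807 for rho). The part of these measures in the shared order of the libraries was not tested.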

How the data were processed

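Poly(A)-selected RNA from 9 rats was sequenced, and the authors deposited raw read counts per Ensembl gene, 1 file per rat. STAR 2.5.0, HTSeq 0.6.1 and the build rn6 are named per the submitters' processing notes. No strand setting or annotation release is named there, so reads of overlapping genes could be lost or joined. The 5 summary entries without a gene were left out (reads outside genes 15.2 to 18.1%, ambiguous 1.57 to 1.80%, aligned to several places 14.3 to 21.1% of records).

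Groups came from the titles. Counts were tested in R 4.3.3 with edgeR 4.0.16 (filterByExpr, TMM, robust quasi-likelihood test, no covariate, Benjamini-Hochberg over 14463 genes). CPM values use TMM-scaled library sizes, and log2 CPM a prior count of 2. Standard errors are the absolute log2 fold change divided by the square root of F. Correlations and group differences of read ratios were tested by exact permutation over libraries, and single values were screened by Dixon's ratio (Python 3.11.15). Alternatives were other scalings, filters, DESeq2 1.42.0, limma 3.58.1, blocks and leaving out each library. The edgeR fit was checked on simulated counts. No 2 libraries matched within sampling noise (chi-square per degree of freedom 3.93 to 21.9).

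All 7 genes are named, by rule. The genes, lists and tests were chosen with earlier results of these data known, and the 2 motifs after the sequences were seen. Symbols of the 7 came with their selection, since the RefSeq table holds 0 Ensembl identifiers for its 47357 genes. Lists of further microglial, complement and antigen presentation genes were therefore not used here.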

Additional observations from a re-analysis of the deposited data

How the results depend on the processing

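In each of the 19 alternative fits 0 of the 7 genes were called in either direction, with adjusted p from 0.272 upwards over these 7 genes and 19 fits. Itgam stayed below 0 and C3 above 0 in all 19. The other 5 genes, whose differences were near 0, changed sign in some fits, and the cause was not tested. With upper quartile factors and with none, Cd74 was at -0.0042 and -0.0083 on the log2 scale. With limma-voom, C1qa was at -0.11, Cd74 at -0.0062 and B2m at -0.037. With 1 library left out, log2 fold changes ran from -0.12 to 0.054 for Aif1, -0.084 to 0.14 for C1qa, -0.25 to 0.034 for C1qb, -0.11 to 0.072 for Cd74, -0.036 to 0.11 for B2m, -0.27 to -0.095 for Itgam and 0.13 to 0.36 for C3. Without CTL replicate 2, C1qb was at 0.034.

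The deviations of same-numbered CTL and ELA rats from their group means were weakly related. Their r ran from -0.129 to 0.241 by title number and from -0.172 to 0.244 by description number. The main test used no pairing. Whether the numbers mark a shared litter or batch is not stated in the labels and cannot be decided from these r values. With a replicate block by title number C1qa was at -0.087, Cd74 at -0.11 and B2m at -0.010. By description number Aif1 was at 0.0089 and Cd74 at -0.032. ELA replicate 5 had no CTL rat of its title number, and ELA replicate 1 none of its description number. Each was alone in its block there and did not enter the group difference. With no block and ELA replicate 5 left out, C1qa was at -0.084, Cd74 at -0.11 and B2m at 0.0037. With ELA replicate 1 left out instead, Aif1 was at 0.0091 and Cd74 at -0.022. Over all genes, 1 higher and 5 lower calls became 2 and 9 with no filter, 36 and 107 by DESeq2, 143 and 162 by limma-voom, 1 and 0 or 29 and 49 with the title or description block, and 50 and 80 without CTL replicate 1.

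Centring the groups left 2 of 21 pairs passing by r. It moved Itgam with C3 to 0.0040. The 2 rats farthest from the median of the first-named gene were also left out. Aif1 with Itgam was then at -0.033, Itgam with C3 at 0.18, C1qb with Cd74 at -0.42 and Cd74 with B2m at -0.37. For Aif1 with Itgam the rats left out were CTL replicate 1 and ELA replicate 3, while ELA replicate 4 stayed in. Single values were sought that stood apart within a group by Dixon's ratio in 14 sets, of which chance flags about 1 in 20, and 0 were found. Depth limits Cd74 and Aif1 most, at 107 to 243 reads.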
